A study of Mus musculus with 768 samples.

Results

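The transcripts of 10 integrin genes were followed in natural killer (NK) cells sorted from tumors: the alpha chain genes Itga1, Itga2, Itga4, Itgal, Itgam, Itgax and Itgae, and the beta chain genes Itgb1, Itgb2 and Itgb7. They are 10 of the 24490 gene entries in the deposited tables, chosen by symbol, and each symbol stood on 1 entry. They were read in the wells with 1000 to 3500 genes above 0, counting genes above 0 in at least 3 wells, which kept 726 of 768 wells, 360 of them on the WT plate and the rest on the PD-1-/- plate.

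The study sequenced single NK cells by SMART-SEQ2, a method that reads whole transcripts of 1 cell per well, to compare tumor-infiltrating NK cells with and without the inhibitory receptor PD-1. The tumor was MTAP1A, a transplanted fibrosarcoma clone that lacks the peptide transporter subunit Tap1 and so carries little MHC class I, grown in age-matched male C57BL/6 mice. The WT plate came from the pooled tumors of 3 C57BL/6 mice, and the PD-1-/- plate from the pooled tumors of 3 mice with a general deletion in Pdcd1, which all of their cells carry. Viable NK1.1+ cells without surface CD3 and GR1 were sorted. Each genotype was thus 1 pool on 1 plate, so the genotype cannot be told apart from its plate and no test of the difference was possible. Intervals below are exact 95% binomial intervals (Clopper-Pearson) for shares and Newcombe intervals for differences of shares, and they cover counting error only.

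Integrins are cell surface receptors made of 1 alpha and 1 beta chain, and neither chain reaches the surface in quantity without a partner. The beta 1 chain (Itgb1) pairs with the collagen receptor chains Itga1 (CD49a) and Itga2 (CD49b, the DX5 antigen) and with Itga4. The beta 2 chain (Itgb2) pairs with Itgal, Itgam and Itgax to form the leukocyte integrins that bind ICAM molecules and complement fragments. The beta 7 chain (Itgb7) pairs with Itga4 to bind the gut vessel ligand MAdCAM-1 and with Itgae (CD103) to bind E-cadherin. In mouse NK cells, CD49b and CD11b (Itgam) are used as surface markers of conventional and mature circulating cells, while CD49a marks tissue-resident NK cells and type 1 innate lymphoid cells. CD103 marks lymphocytes held in epithelia and is induced by TGF-beta.

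Itga1 and Itga2 are next to each other on chromosome 13 in the RefSeq order of protein coding genes, and Itgam, Itgax and the related Itgad are neighbors on chromosome 7. RefSeq promoter sequences of assembly GRCm38.p6, 250 bases before to 50 bases after the gene start, were found for 7 of the 10 genes. Those of Itga1, Itga2 and Itgam are shown because the split between these alpha chains is the comparison that follows. Capitals mark matches on either strand to 4 motifs: TGTGGT (RUNX factors), GGTGTGA (T-box factors such as T-bet and Eomes), AGGAAG (ETS factors) and GGGCGG (SP factors).
Itga1, chr13:115101915-115102214, minus strand: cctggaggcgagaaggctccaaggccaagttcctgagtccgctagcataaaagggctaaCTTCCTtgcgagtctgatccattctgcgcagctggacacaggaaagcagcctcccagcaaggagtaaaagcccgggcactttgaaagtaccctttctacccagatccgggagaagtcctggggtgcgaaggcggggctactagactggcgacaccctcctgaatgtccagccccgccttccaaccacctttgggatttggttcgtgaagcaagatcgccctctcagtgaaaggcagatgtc
Itga2, chr13:114932051-114932350, minus strand: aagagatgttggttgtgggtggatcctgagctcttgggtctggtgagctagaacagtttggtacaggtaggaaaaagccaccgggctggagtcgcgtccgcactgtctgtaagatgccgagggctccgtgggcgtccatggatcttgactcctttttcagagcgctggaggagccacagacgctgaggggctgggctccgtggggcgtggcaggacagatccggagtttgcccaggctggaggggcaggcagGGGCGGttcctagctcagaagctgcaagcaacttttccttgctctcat
Itgam, chr7:128062390-128062689, plus strand: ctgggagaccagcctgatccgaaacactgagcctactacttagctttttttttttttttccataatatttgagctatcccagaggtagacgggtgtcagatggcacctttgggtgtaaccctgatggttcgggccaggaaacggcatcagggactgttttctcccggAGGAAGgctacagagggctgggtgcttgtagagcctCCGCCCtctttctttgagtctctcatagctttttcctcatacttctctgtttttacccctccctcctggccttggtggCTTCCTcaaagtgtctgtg
The Itga1 window held 1 ETS match, at -191 from the start. The Itga2 window held 1 SP match, at position 3 of the transcribed part. The Itgam window held ETS matches at -83 and 32 and an SP match at -47. None of the 3 windows held the RUNX or the T-box letters. Of 32851 RefSeq promoters of this length, 16.8% held the RUNX letters, 3.98% the T-box letters, 35.4% the ETS letters and 35.7% the SP letters. A match is a description of the letters and not of a bound factor, and no match says only that these letters are not in the window.

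The values are RPKM, reads per kilobase of transcript divided by the size of that cell's library, so levels can be set side by side between genes, and a transcript was counted as present in a cell at any RPKM above 0. Whole reads, recovered from the equal steps of the RPKM values, had a median of 406680 per kept WT cell (range 1682 to 638979) and 439036 per kept PD-1-/- cell (2414 to 761919). Each kept cell had at least 2 of the 8 NK-like marker genes. The deleted gene, Pdcd1, was read in 2.50% of WT cells (1.15 to 4.69) and 12.8% of PD-1-/- cells (9.59 to 16.7), and values per gene do not separate the deleted part from the rest, so it does not check the labels. WT and PD-1-/- stand here for the plates labelled so. A transcript of Cd3d, Cd3e or Cd3g, the CD3 chains of T cells, was read in 18.1% of the WT cells and in 22.7% of those labelled PD-1-/-, although surface CD3 was gated out.

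The beta chains and Itgal were read in most cells, Itga4 and Itgax in about as many cells as not or more, and Itga1, Itga2, Itgam and Itgae in a minority. Itgb2, the shared chain of the leukocyte integrins, was in 93.3% of WT cells (90.2 to 95.7) and 93.2% of PD-1-/- cells (90.1 to 95.5). Itgb1 was in 92.8% (89.6 to 95.2) and 95.9% (93.3 to 97.7). Itgb7 was in 67.5% (62.4 to 72.3) and 68.3% (63.3 to 73.04). The 3 shares differed by less than 4 percentage points between the plates, and each interval of the difference held 0.

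Among the alpha chains, Itgal, which forms LFA-1, had the highest share, 86.9% of WT cells (83.02 to 90.2) and 86.6% of PD-1-/- cells (82.7 to 89.9). Itgax (CD11c) followed, with 62.5% (57.3 to 67.5) and 61.2% (56 to 66.2). Itga4 (CD49d) was in 54.4% (49.1 to 59.7) and 47.3% (42.1 to 52.5). The difference of -7.18 points, PD-1-/- minus WT, had an interval from -14.3 to 0.09 that held 0. In the GENCODE vM21 annotation an exon of Itga4 overlaps an exon of Cerkl on the opposite strand, and with a protocol that does not mark strand the reads of the overlap cannot be told apart.

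Itga2 was in 24.2% of WT cells (19.8 to 28.9) and 25.4% of PD-1-/- cells (21.03 to 30.2). Itgam was in 17.8% (13.97 to 22.1) and 20.8% (16.7 to 25.3). Itga1 was in 13.3% (9.997 to 17.3) and 24.6% (20.3 to 29.3), the only member whose difference between plates, 11.3 points (5.57 to 16.9), had an interval that lay above 0. Itgae was rare, in 12 WT cells (3.33%, 1.73 to 5.75) and 13 PD-1-/- cells (3.55%, 1.90 to 6.00). Itga1 shares an exon stretch with Gm49395 and Itgam with Gm49368, both on the same strand, so reads there could belong to either gene.

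**Figure D1:**
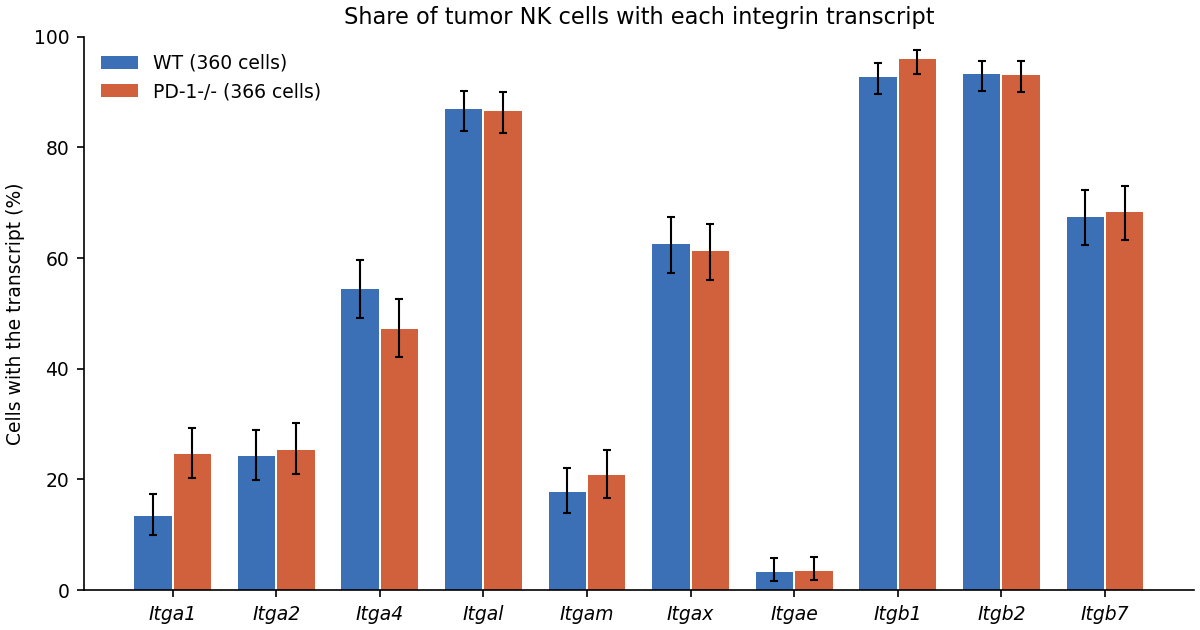
Share of kept cells with an RPKM above 0 (y axis, percent) for each of the 10 integrin genes (x axis), in WT (blue, 360 cells) and PD-1-/- (orange, the other kept cells of 726). Bars are shares and lines are exact 95% intervals of counting error. The bars of Itga1 stand apart, at 13.3% and 24.6%, while the intervals of the other 9 genes overlap between the plates.

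Most cells with a member held more than a few of its reads. Where reads could be recovered, for 9 of the 10 members and not for Itgae, between 77.1% and 96.5% of the cells with a member held at least 10 of its reads. The lowest of these was Itga1 in WT, with a median of 81.5 reads in the cells that had it, against 115.5 in PD-1-/-. Cells were also thinned to 100000 recovered reads, which left out 17 WT and 12 PD-1-/- cells with fewer. Itga1 was then in 12.5% of WT (9.22 to 16.5) and 23.2% of PD-1-/- cells (18.9 to 27.9). The wells that the stated 382 sorted cells do not cover, P23 and P24 of each plate if filled in order, held none of the members but Itgb2.

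The order of the mean levels followed that of the shares only in part. Itgb2 had the highest mean RPKM, 527 in WT and 489 in PD-1-/-, ahead of Itgb1 (322.01 and 355.5) and Itgb7 (284.9 and 306.4). Itgal had 218.1 and 238.04, and Itgax 131.7 and 143.3. A gap then followed: Itga4 had 28.9 and 23.4, Itgam 20.03 and 25.3, Itga2 19.2 and 28.6, Itga1 7.91 and 19.6, and Itgae 2.35 and 2.00. Itga4, Itgam and Itga2 stood in another order on each plate, so that their order is not fixed by these data.

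In the cells that had a transcript, the spread was wide for each member. The median RPKM in WT was 483 for Itgb2 (lower to upper quartile 261.1 to 795), 350.7 for Itgb7 (197.9 to 595), 277.4 for Itgb1 (156.3 to 469) and 218.4 for Itgal (123.3 to 361.7). For Itgax it was 177.9 (89.4 to 278.9), and for Itgam 87.2 (36.7 to 165.8). Itga2 had 65.2 (14.2 to 107.4), Itgae 63.1 (33.9 to 101.6), Itga1 41.7 (14.95 to 101.2) and Itga4 32.3 (11.8 to 73.8). Itga4 was thus present in more cells than Itgam at a lower level in each, and Itgb7 was present in fewer cells than Itgb1 at a higher one. In PD-1-/- the medians ran from 35.4 for Itga4 to 418 for Itgb2. Itga1 stood at 59.3 (14.3 to 134.05) and Itga2 at 96.8 (26.2 to 156.7) there, and these quartile ranges overlapped with those of WT.

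**Figure D2:**
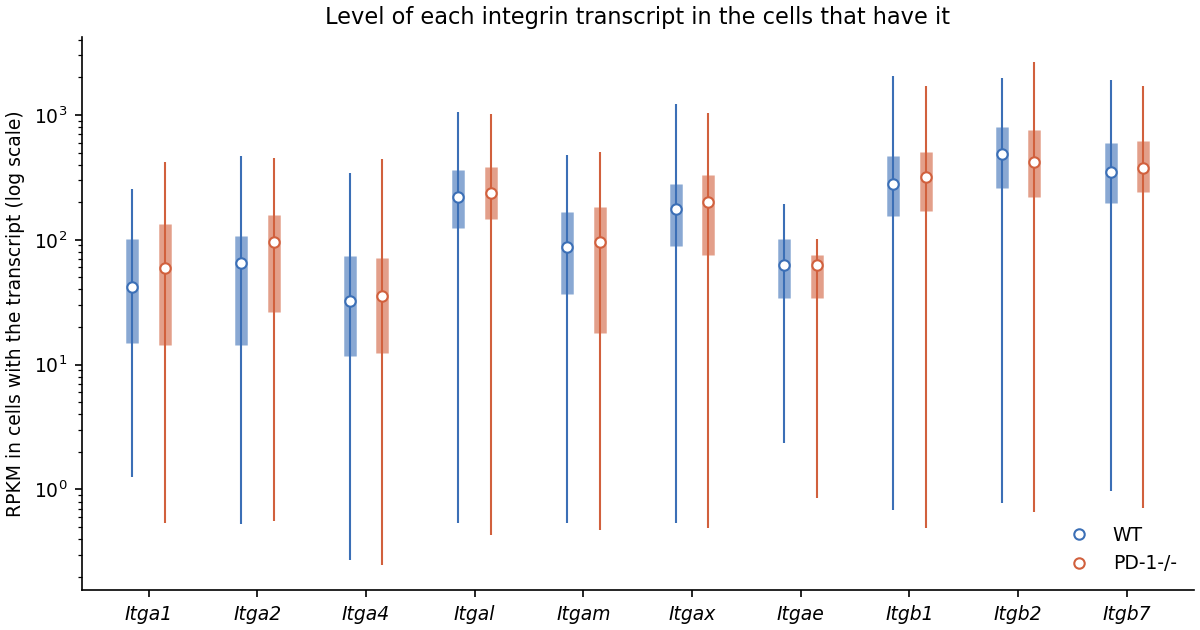
RPKM (y axis, log scale) in the cells with an RPKM above 0, for each integrin gene (x axis) in WT (blue) and PD-1-/- (orange). Circles are medians, thick lines run from the lower to the upper quartile and thin lines from the lowest to the highest cell. The quartile ranges of the plates overlap for each gene, with Itgb2 highest and Itga4 lowest.

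Between the genotypes, 1 of the 10 members passed a 1.5-fold difference in mean RPKM over all kept cells, and that was Itga1. After adding a pseudocount of 1 RPKM, its log2 ratio of PD-1-/- to WT was 1.21. Of the 12030 entries with a mean of at least 1 RPKM on a plate, 11% were at least 1.5-fold higher and 14% at least 1.5-fold lower in PD-1-/-. Either way it was 24.95% of the entries, so 1 of 10 members is not above the share of all entries. The median of the members was 0.12, against -0.03 over those entries. Without the cells with a CD3 transcript, Itga1 and Itga2 passed, 2 of 10, as did 27.5% of all entries.

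The other members lay between -0.30 (Itga4) and 0.55 (Itga2) on the log2 scale. Itgam had 0.32, Itgb1 0.14, Itgal 0.13, Itgax 0.12, Itgb7 0.10, Itgb2 -0.11 and Itgae -0.16. The medians over the cells that had Itga1 differed by 0.51 on the log2 scale, less than the mean over all cells.

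Plate rows gave values that move with these differences. Of the 38 WT cells in rows A and B, 15 had Itga1 (39.5%, 24.05 to 56.6), against 33 cells in the other rows (10.2%, 7.16 to 14.1). On the PD-1-/- plate 10 of 45 (22.2%, 11.2 to 37.1) and 80 in the other rows (24.9%, 20.3 to 30.03) had it. CD3 transcripts were in 20 of those 38 WT cells, and 4 of the 12 WT cells with Itgae lay in row A. Without both rows the log2 ratio of Itga1 was 1.67. It was 0.73 over the upper plate rows, A to H, and 1.98 over the lower ones, I to P, higher in PD-1-/- in both. Itga4 had 0.13 above and -0.73 below, and Itgam 0.96 above and -0.26 below, so that both went opposite ways on the parts of the plate. Without the cells with a CD3 transcript the log2 ratio was 1.58 for Itga1 and 0.68 for Itga2.

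**Figure D3:**
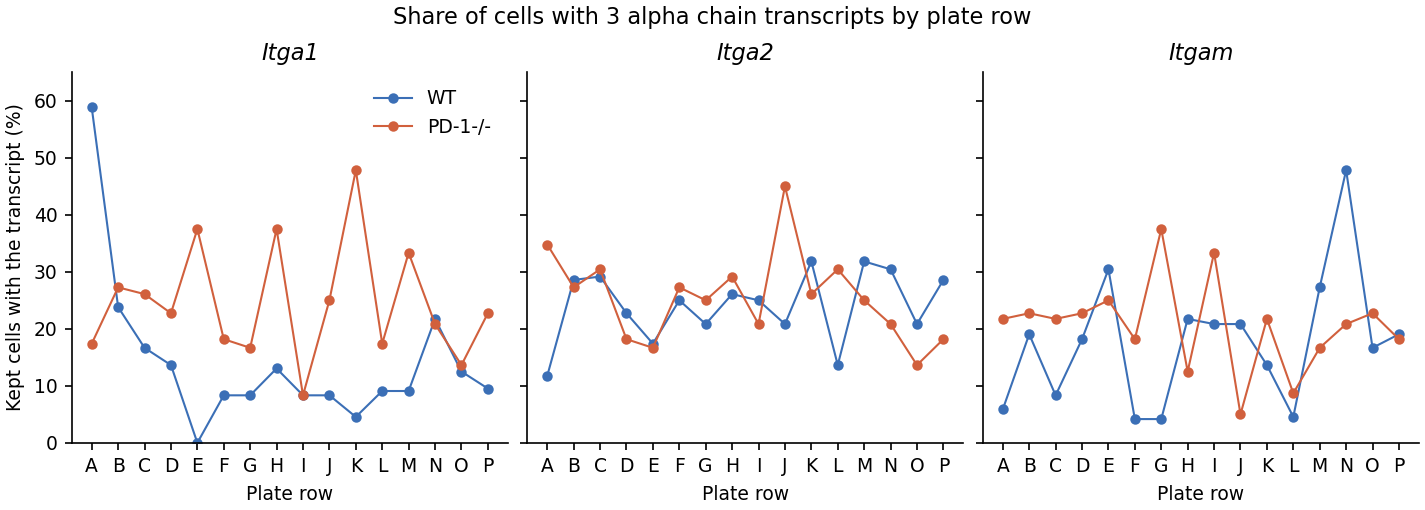
Share of kept cells with Itga1, Itga2 or Itgam (y axis, percent) in each of the plate rows A to P (x axis), for WT (blue) and PD-1-/- (orange). Each point is 1 row of 17 to 24 cells. WT row A stands at 58.8% for Itga1, above the other WT rows, and the 3 genes vary from row to row on both plates.

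Of the collagen receptor chains, Itga2 was read less often in cells with Itga1 than in cells without it. Itga2 was in 6 of 48 WT cells with Itga1 (12.5%) and in 81 of those without it (25.96%), a difference of -13.5 points (-21.9 to -0.44). In PD-1-/- it was in 15 of 90 (16.7%) and 78 of the others (28.3%), a difference of -11.6 points (-20.01 to -1.28). The odds ratio over 4 classes of detected genes on each plate (Mantel-Haenszel) was 0.41 in WT and 0.51 in PD-1-/-. The direction was the same on both plates, and the upper ends of both intervals were close to 0.

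The split was thus partial. Cells with Itga1 and no Itga2 made up 11.7% of WT (8.54 to 15.4) and 20.5% of PD-1-/- cells (16.5 to 24.995). Cells with Itga2 and no Itga1 made up 22.5% (18.3 to 27.2) and 21.3% (17.2 to 25.9). Both were read in 1.67% (0.61 to 3.59) and 4.10% (2.31 to 6.67), and neither in 64.2% and 54.1%. The larger Itga1 share of PD-1-/- cells stood beside a nearly equal share of cells with Itga2 alone.

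Itgam did not divide from Itga1 beyond counting error. It was in 8 of 48 WT cells with Itga1 (16.7%) and 56 of those without (17.9%), a difference of -1.28 points (-10.5 to 12.2). In PD-1-/- it was in 14 of 90 (15.6%) and 62 of the others (22.5%), a difference of -6.91 points (-14.9 to 3.06). The PD-1-/- interval reaches a difference as large as that of Itga2, and the WT interval does not. Itga2 and Itgam, both markers of conventional NK cells, were read together in 17 of 87 WT cells with Itga2 (19.5%) against 17.2% of the others, and in 23 of 93 PD-1-/- cells (24.7%) against 19.4%. Both of those intervals held 0.

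Itga1 was read more often and Itgam less often in cells with CD3 transcripts. Itga1 was in 17 of 65 WT cells with a CD3 transcript (26.2%, 16.03 to 38.5) and 31 without (10.5%, 7.25 to 14.6). In PD-1-/- it was in 30 of 83 (36.1%, 25.9 to 47.4) and 60 of the others (21.2%, 16.6 to 26.4). Itgam was in 6 WT cells with a CD3 transcript (9.23%, 3.46 to 19.02) and 19.7% of those without (15.3 to 24.7). In PD-1-/- it was in 12.05% (5.93 to 21.04) and 23.3% (18.5 to 28.7). The intervals with and without CD3 transcripts overlapped except for Itga1 in WT. Without the cells with CD3 transcripts, the Itga1 against Itga2 difference was -10.8 points (-21.4 to 6.48) in WT and -11.4 points (-21.7 to 1.71) in PD-1-/-. Both were of the same direction, with intervals that held 0. Without rows A and B they were -10.5 points (-20.5 to 5.997) and -9.47 points (-18.5 to 1.59). The whole list of 10 T-like markers gave at least 1 read gene in 41.7% of WT cells with Itga1 and 19.2% of those without, and in 38.9% and 22.8% in PD-1-/-. The mean summed level of the list was 926 against 143.6 RPKM in WT and 950 against 219.4 RPKM in PD-1-/-. The range was 0 to 5387 against 0 to 4729 RPKM in WT, and 0 to 6140 against 0 to 5164 RPKM in PD-1-/-. Of the 10 markers, 2 were at 0 in all WT cells with Itga1 and 1 in all PD-1-/- cells with it. At least 2 NK-like markers were in every kept cell, with or without Itga1, so that count does not set the cells apart. The mean summed level of the NK-like list was 15691 RPKM with Itga1 and 19796 without in WT, and 17285 and 20965 in PD-1-/-.

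For Itgax, which encodes CD11c, the plates gave different values beside Itga1 and Itgam. In PD-1-/-, Itgax was in 66 of 90 cells with Itga1 (73.3%) and in 57.2% of those without, a difference of 16.1 points (4.62 to 26.1), but in WT it was in 64.6% and 62.2%, a difference of 2.40 points (-12.7 to 15.6). Itgax was in 34 of 76 PD-1-/- cells with Itgam (44.7%) and 65.5% of those without, a difference of -20.8 points (-32.7 to -8.27). In WT the same shares were 64.1% and 62.2%, a difference of 1.90 points (-11.5 to 14). Whether either pair differed between the plates was not tested, and the intervals of the plates overlap for both.

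At the level of whole cells, the median number of the 7 alpha chains read was 3 on both plates. None was read in 9 WT and 3 PD-1-/- cells, and 4 or more in 67 WT and 82 PD-1-/- cells. All 3 beta chains were read in 60.6% of the WT cells and in 63.4% on the PD-1-/- plate. Cells without any beta chain numbered 0 in WT and 1 in PD-1-/-. The limit set for the count of 0 was 3 cells of 360, or 0.833%, which is not the exact interval used elsewhere.

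With Itgb1 and Itgb2 in nearly all cells, most cells with an alpha chain also held the transcript of a partner. Itgal with Itgb2, the LFA-1 pair, was in 81.7% of WT (77.3 to 85.5) and 80.6% of PD-1-/- cells (76.2 to 84.5). Itgax with Itgb2 was in 58.6% and 57.7%, Itga4 with Itgb1 in 50% and 45.1%, and Itga4 with Itgb7 in 37.8% and 33.3%. Itga2 with Itgb1 was in 23.1% and 23.8%, Itgam with Itgb2 in 16.4% and 19.7%, and Itga1 with Itgb1 in 13.1% and 24.3%. Itgae with Itgb7 was in 9 WT (2.50%) and 10 PD-1-/- cells (2.73%). These are transcript pairs, and surface heterodimers were not measured.

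On each plate 1 cell with Itga1 lacked Itgb1, of 48 in WT and of 90 in PD-1-/-. Itgb1 was in 97.9% of WT cells with Itga1 and 91.99% of those without, and in 98.9% and 94.9% in PD-1-/-. The odds ratios were 2.86 and 4.17, and each interval of the difference held 0.

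An odds ratio above 1 on both plates was about as frequent among known partners as among other chains. Of the 8 known pairs, 3 had an odds ratio above 1 on both plates: Itga1 with Itgb1, Itga4 with Itgb7 and Itgae with Itgb7. Of the 13 other alpha-beta pairs, 6 did, among them Itgae with Itgb1, whose ratio had no finite value. Without the cells with a CD3 transcript the counts were 5 of 8 and 6 of 13. For the 3 known pairs over all kept cells, each interval of the difference in share held 0. The Itgae pairs rested on 12 WT and 13 PD-1-/- cells with Itgae. The median odds ratio was 1.31 for the known pairs and 1.34 for the others in WT, and 1.21 and 0.99 in PD-1-/-. In a pair that is not known to form a receptor, Itgb1 was in 95.6% of WT cells with Itgax and 88.1% of those without, a difference of 7.41 points (1.74 to 14.2), and in 98.2% and 92.3% in PD-1-/-, a difference of 5.96 points (1.64 to 11.7). Itgb7 was in 79.2% of WT cells with Itga1 and 65.7% of those without, and in 80% and 64.5% in PD-1-/-, differences of 13.5 points (-0.88 to 24.1) and 15.5 points (4.65 to 24.6).

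**Figure D4:**
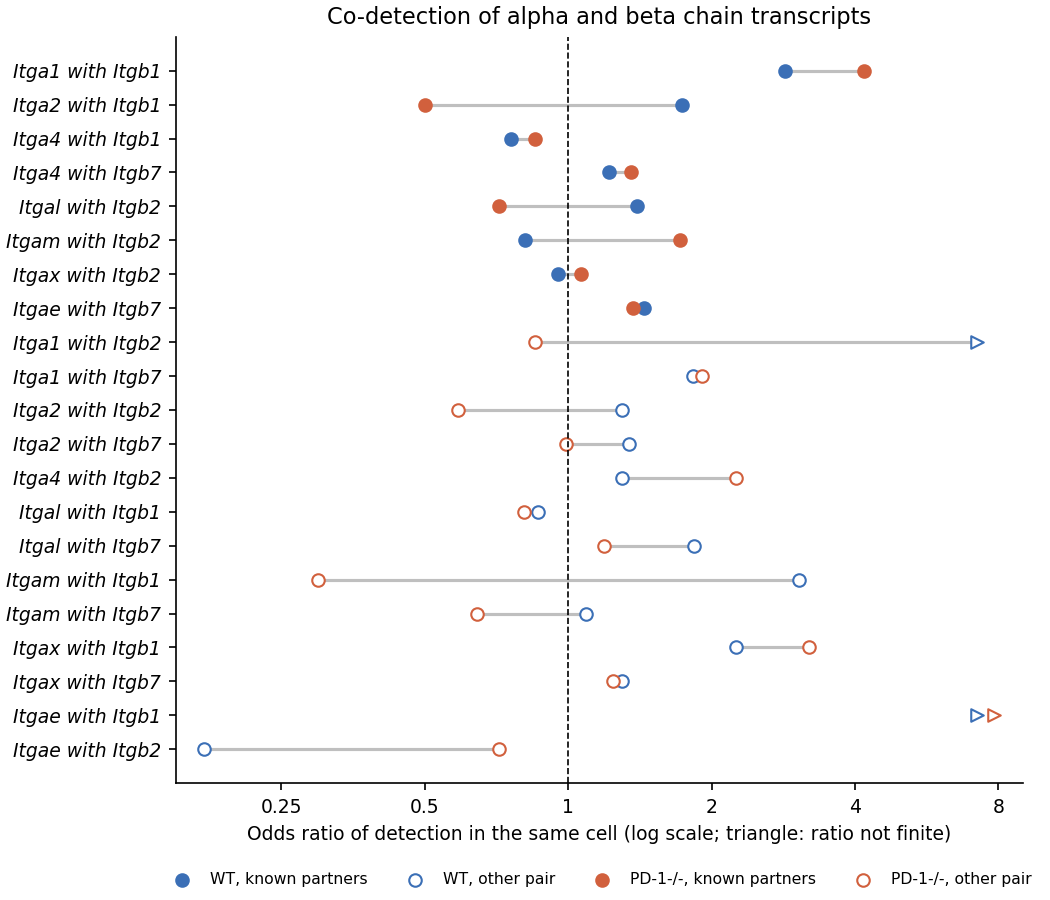
Mantel-Haenszel odds ratio (x axis, log scale) that the transcripts of an alpha and a beta chain were read in the same cell, over 4 classes of detected genes on each plate, for the 21 alpha-beta pairs (y axis). Filled circles are the 8 known partners and open circles the other 13 pairs, in WT (blue) and PD-1-/- (orange), and triangles at the right edge mark ratios with no finite value because no cell with the alpha chain lacked the beta chain. Known and other pairs lie on both sides of 1, and 3 of 8 and 6 of 13 lie above it on both plates.

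The cells of the Itga1 and Itga2 classes differed in other genes. The share of cells with each gene was set side by side between cells with Itga1 and no Itga2 (42 WT, 75 PD-1-/-) and cells with Itga2 and no Itga1 (81 WT, 78 PD-1-/-). A gene passed at 10 percentage points or more in the same direction on both plates. Of the 8264 entries in at least 5% of the cells of each plate, 3.67% passed as higher and 0.605% as lower in the Itga1 class, and the median difference over all entries was 2.91 points in WT and 1.49 in PD-1-/-. The Itga1 class had more detected genes, a median of 2540.5 against 2280 in WT and 2394 against 2188.5 in PD-1-/-. It also had more cells with a CD3 transcript, 38.1% against 12.3% and 36% against 10.3%.

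Of the list of residency genes, 8 of 12 tested were higher in the Itga1 class and 0 were lower. The study had already reported Cxcr6, Tnfsf10, Amica1, Il7r and Il21r as higher in the same cell clusters as Itga1, in these same data. All of them are on the list, and Il7r and Il21r were not among the 8. The count is thus partly set by the choice of the list and is no independent support. Cxcr6, a chemokine receptor that retains lymphocytes in tissue, was in 38.1% of the WT Itga1 class (23.6 to 54.4) and 2.47% of the Itga2 class (0.30 to 8.64). In PD-1-/- it was in 49.3% (37.6 to 61.1) and 15.4% (8.21 to 25.3). Inpp4b, a phosphoinositide phosphatase, was in 38.1% and 6.17% in WT and in 37.3% and 6.41% in PD-1-/-. Amica1, the junctional adhesion protein JAML, was in 33.3% and 7.41% and in 36% and 6.41%. Cd160, an NK receptor, was in 52.4% and 24.7% and in 54.7% and 33.3%. The median difference of the list was 18.3 points in WT and 22.8 points in PD-1-/-. Without plate rows A and B, 4 of 11 were higher, Inpp4b, Tmem176b, Cd160 and Amica1, beside 3.78% of 8146 entries (0.908% lower). Cxcr6 was then under the 5% filter in WT and not tested between the classes. Over all cells outside those rows, Cxcr6 was in 24.2% of WT cells with Itga1 and 2.08% of those without, 22.2 points apart (10.5 to 38.99). In PD-1-/- it was in 46.25% and 14.1%, 32.1 points apart (20.5 to 43.6).

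Of the list of conventional NK genes, 5 of 11 tested were lower in the Itga1 class and 0 were higher. The study had already reported little Eomes and Irf8 in the clusters with Itga1. It also reported that Klra7 and Klra9 seemed under-represented in a cluster among these. All of them are on the list, so this count is not independent either, and Irf8 and Klra7 were not among the 5. Klf2, a transcription factor that drives the expression of receptors for leaving tissue, was in 30.95% of the WT Itga1 class (17.6 to 47.1) and 56.8% of the Itga2 class (45.3 to 67.8). In PD-1-/- it was in 10.7% (4.72 to 19.9) and 57.7% (45.98 to 68.8). Eomes, the T-box factor of conventional NK cells, was in 50% and 72.8% in WT and in 33.3% and 65.4% in PD-1-/-. S1pr5, the sphingosine phosphate receptor for exit of NK cells from tissue, was in 14.3% and 32.1% and in 9.33% and 42.3%. Cma1, a mast cell type protease, was in 2.38% and 16.05% and in 2.67% and 19.2%, and Klra9, an inhibitory Ly49 receptor, was the fifth gene.

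Of the maturation list, 4 of 10 tested were higher in the Itga1 class and 0 were lower. The list holds genes of less mature cells, such as Cd27, beside those of mature cells, such as Klrg1. The count therefore gives no direction of maturation. Thy1, a surface glycoprotein of T cells and innate lymphoid cells, was in 88.1% of the WT Itga1 class (74.4 to 96.02) and 54.3% of the Itga2 class (42.9 to 65.4), and in 88% (78.4 to 94.4) and 55.1% (43.4 to 66.4) in PD-1-/-. Ly6c2 was in 52.4% and 18.5% in WT and in 66.7% and 30.8% in PD-1-/-. Xcl1, a chemokine that attracts dendritic cells, and Klrg1, an inhibitory receptor of mature cells, were the others. Of the TGF-beta response list 2 of 7 tested were higher, the receptor gene Tgfbr2 and the repressor gene Ski. Of the 22 genes for activators and adaptors of integrins, such as talin and kindlin-3, 0 passed in either direction.

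Leaving out the cells with CD3 transcripts, 5 of 11 residency genes were higher in the Itga1 class, Inpp4b and Cd160 among them, while Amica1 did not pass and Cxcr6 was under the 5% filter in WT. Of the conventional NK genes 4 of 11 were lower, of which Eomes, Klf2 and Cma1 had passed before and Klra7 had not, and S1pr5 and Klra9 no longer passed. The share of all 8149 entries was then 4.44% higher and 0.933% lower. Over all kept cells of the classes, the T-like list had 3 of 3 tested genes higher, Cd3d, Cd3e and Cd3g. Without plate rows A and B it had 1 of 2 higher, Cd3d, and in rows I to P 0 of 2. Of the NK-like list, which also holds Eomes, Ncr1 and Eomes were lower over all kept cells of the classes, 2 of 8. Without the cells with CD3 transcripts only Eomes of that list was lower. Over all WT cells without CD3 transcripts Eomes was in 61.3% of cells with Itga1 and 64.4% of those without, a difference of -3.10 points (-21.4 to 13.01). In PD-1-/- the same shares were 38.3% and 64.1%, a difference of -25.8 points (-38.5 to -11.6). Cxcr6 was in 22.6% and 1.14% of these cells in WT, a difference of 21.4 points (10.05 to 38.7). In PD-1-/- it was in 36.7% and 9.87%, a difference of 26.8 points (14.8 to 39.9). The 5 cycling-like genes, over all kept cells, gave at least 1 read gene in 22.9% of WT cells with Itga1 and 18.6% of those without. In PD-1-/- the same shares were 36.7% and 22.5%. Ncr1, the NK receptor NKp46, was in 78.6% of the WT Itga1 class and 85.3% of the PD-1-/- Itga1 class, cells with CD3 transcripts included. Both shares were at least 10 percentage points below those of the Itga2 class, since Ncr1 passed as lower.

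**Figure D5:**
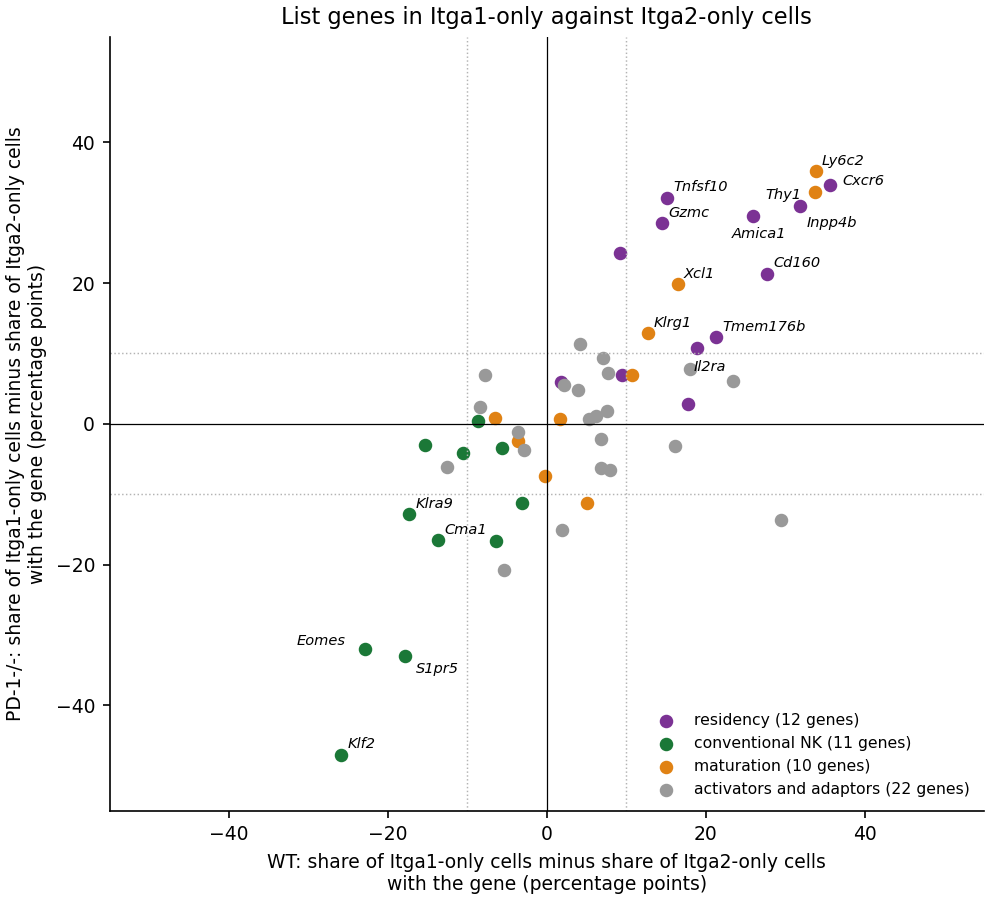
Difference between the share of cells with a gene in the Itga1-only class and in the Itga2-only class (percentage points), in WT (x axis) and PD-1-/- (y axis), for genes of 4 lists. Each point is 1 gene, dotted lines mark 10 points either way, and genes of the first 3 lists that passed on both plates are named. Of the residency genes (purple), 8 of 12 lie beyond both limits at the upper right, up to 35.6 and 33.9 points for Cxcr6, and of the conventional NK genes (green) 5 of 11 lie beyond both at the lower left, down to -25.8 and -47.0 points for Klf2.

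Likeness to the 3 alpha chains was ranked by Spearman's rho of log2(RPKM + 1) over the kept WT and over the kept PD-1-/- cells, taking the lower of both values. The points share a plate and differ in depth, so the values are descriptions. Most like Itga1 were Cxcr6 (rho 0.41 in WT and 0.38 in PD-1-/-), S100a4 (0.36 and 0.43), Ly6c2 (0.28 and 0.35), Bcl2a1d (0.27 and 0.28) and Lgals3 (0.26 and 0.34). S100a4, a calcium-binding protein gene, was in 77.1% of WT cells with Itga1 and 34.3% of those without, and in 77.8% and 37.3% in PD-1-/-. Least like it were the Ly49 receptor genes Klra18 (-0.20 and -0.28), Klra23 (-0.19 and -0.21) and Klra21 (-0.16 and -0.18), which are close copies of each other, so that reads may be split among them.

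Genes like Itga2 and Itgam were less alike than those of Itga1. For Itga2 they were Klrc2 (0.20 and 0.15), an activating receptor chain, Prr5l (0.16 and 0.15), Klf2 (0.15 and 0.25), Pde2a (0.14 and 0.20) and Hnrnpdl (0.12 and 0.13). Ikzf2, the transcription factor Helios, was among the least like Itga2 (-0.15 and -0.14) and was in 3.45% of WT cells with Itga2 and 15.4% of those without, with Ly6e and Aldoa as the others. For Itgam they were the granzyme Gzma (0.18 and 0.31), Klri2 (0.18 and 0.19), Entpd1 (0.21 and 0.16), Cd37 (0.16 and 0.17) and Klrg1 (0.15 and 0.20). Entpd1, the ectonucleotidase CD39, was in 25% of WT cells with Itgam and 7.77% of those without, and in 27.6% and 13.8% in PD-1-/-. The ribosomal protein genes Rps9, Rpsa and Rps3 were least like Itgam, at -0.19 or lower on both plates.

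Itgam and Itgax also occur on macrophages, dendritic cells and neutrophils. The 5 measured myeloid-like markers gave at least 1 read gene in 12.5% of WT cells with Itgam and 13.2% of those without, and in 6.58% and 7.24% in PD-1-/-. Among cells with Itgax the shares were 12.4% and 14.1% in WT and 7.14% and 7.04% in PD-1-/-. At least 2 of these markers were in 4 of 64 WT cells with Itgam and 2 of those without (0.676%), and in PD-1-/- in 0 of 76 cells with Itgam and 3 of those without (1.03%). Platelets also carry Itga2, and at least 1 platelet-like marker was in 2.50% of all kept WT and 1.91% of all kept PD-1-/- cells. Platelet-like markers were in 1 of the 87 WT cells with Itga2 and 1 of the 93 in PD-1-/-. Of the cells with Itgae, 2 of 12 in WT and 2 of 13 in PD-1-/- had such a marker.

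Of the 16 other integrin subunit genes, 0 were in as many as 50% of the cells on both plates, and 4 were in at least 5% on both. Itgav was in 22.2% of WT (18.03 to 26.9) and 20.5% of PD-1-/- cells (16.5 to 24.995). Its partner Itgb3 was in 16.7% (12.97 to 20.9) and 22.7% (18.5 to 27.3), and passed the rule as higher in the Itga1 class, 33.3% against 9.88% in WT and 25.3% against 6.41% in PD-1-/-. Itga5, the fibronectin receptor chain, was in 16.1% and 13.4%, and Itgad in 5.28% and 6.28%. Of the 8 that could be tested for size, 2 were at least 1.5-fold higher and 1 lower in PD-1-/-, beside 11% and 14% of all entries.

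Of the activators and adaptors, 13 of 22 were in at least 50% of the cells on both plates. By mean RPKM the highest were the adhesion adaptor Zyx (540 in WT and 491 in PD-1-/-), Skap1 (324.4 and 280.6), the small GTPase Rap1b (282.6 and 330.8) and the kinase Ptk2b (244.2 and 259.5). One of the 22, the actin linker Vcl, was at least 1.5-fold lower in PD-1-/-, with a log2 ratio of -1.08, and 0 were higher, beside the same 14% and 11% of all entries. Of the 5 ligand genes tested for size, 1 was higher and 1 lower. Among all 7 ligand genes, Icam1 was in 36.4% and 34.7% of the cells and Icam2 in 20.8% and 24.9%, and 0 of 2 tested passed between the Itga1 and Itga2 classes. The other 5 were in at most 5.83% of the cells.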

How the data were processed

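The members and gene lists were chosen with earlier results of these data known. The authors deposited 1 table of RPKM values per plate, with 24490 gene entries and 1 column per well, and 0 columns could not be mapped to a sample. The submitters' processing notes name TopHat and Cufflinks and the builds mm9 and mm10 without roles, so the build behind the values is not settled, and how the counting treated strand is not given in the sources used here. Since the values are RPKM, no count test was run. Wells with 1000 to 3500 genes above 0 were kept, counting genes above 0 in at least 3 wells, which left out 8 WT and 4 PD-1-/- wells below and 16 and 14 wells above. Whole reads were recovered from the RPKM steps for 10247 genes, and 89.0% of 809920 low values were whole within a relative tolerance of 0.0003. They served only for depth, for thinning and for the number of reads of a member in a cell. Genes whose values fitted no single step, Itgae among them, were not recovered, and no wells held identical values.

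Log2 ratios of mean RPKM used a pseudocount of 1 RPKM and a filter of a mean of at least 1 RPKM on a plate. With 1 pool per genotype, a fixed size of 1.5-fold or 10 percentage points stood in for a test. Named genes were all members, up to 4 genes of a list by level or by difference on the plate where it was smaller, and the 5 most and 3 least alike genes of Itga1, Itga2 and Itgam. Vcl, Klra7, Klra9, Ski, Tgfbr2 and the other list genes named because they passed were chosen after their values were seen. In the ranks of alike genes, 1 gene is not reported here. The scripts were tested on simulated data. Python 3.11.15, numpy 2.4.6, pandas 2.3.3, scipy 1.17.1 and matplotlib 3.10.9 were used, with seed 42 for thinning. Alternatives were other well limits, RPKM thresholds for presence, pseudocounts, filters, fold sizes, scaling, thinning, plate rows and cells without CD3 transcripts. RefSeq promoters of GRCm38.p6 were matched by symbol.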

Additional observations from a re-analysis of the deposited data

Results flagged for a closer look

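Signal outside the comparisons was found in the last well of each plate. The labels state 382 sorted cells, so wells P23 and P24 would be empty if wells were filled in order, which the labels do not state. These wells had fewer than 1000 genes above 0 and were not kept. Itgb2 was at 100.2 RPKM in P24 of the WT plate and 129.4 RPKM in P24 of the PD-1-/- plate, and the other 9 members were at 0 in all 4 wells. Each of these 2 values rested on 2 recovered reads. Wells below the lower limit had a median of 767 recovered reads in WT and 831.5 in PD-1-/-, so few reads give a high RPKM there. Values of Itgb2 in kept cells with it had a lower quartile of 261.1 RPKM in WT and 220.6 RPKM in PD-1-/-. Of those cells, 91.4% in WT and 88.9% in PD-1-/- held at least 10 reads of Itgb2. How much of the Itgb2 signal in other wells is of this kind was not tested.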

How the results depend on the processing

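No paired analysis was possible because the replicate numbers only name wells of 2 separate plates, and no value rests on a test of genotype. Of 80 alternatives for the main results, 74 kept the value within its interval, or the count within 1.5 times. The number of known chain pairs above 1 on both plates was 5 instead of 3 with all wells kept and 5 without cells with CD3 transcripts, where 8 and 6 of the 13 other pairs were above 1. The number of members past the fold was 2 without cells with CD3 transcripts (Itga1 and Itga2), 2 in rows A to H (Itga1 and Itgam), 4 in rows I to P (Itga1, Itga2, Itga4 and Itgae) and 2 at a smaller fold size (Itga1 and Itga2), against 27.5%, 39.2%, 35.1% and 45.6% of all entries. Outside these results, residency genes that passed were 4 of 11 without rows A and B and 5 of 11 without cells with CD3 transcripts, instead of 8 of 12, while the genes of all pathway lists that passed stayed between 15 and 23, against 20. The Itga1 against Itga2 difference stayed negative under the 9 alternatives on each plate, from -19.3 to -4.71 points in WT and from -15.0 to -8.01 points in PD-1-/-, but the interval then held 0 for 7 of 9 in WT and 4 of 9 in PD-1-/-. The Itga1 against Itgam difference ran from -8.54 to 11.3 points in WT. Of the member shares under the alternatives, 13 left the interval of the main value, 9 of them at a presence threshold of 10 RPKM. Itgae rests on 25 cells in all, and its reads could not be recovered.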
